A study of Sus scrofa with 5 samples.

Results

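A set of 9 genes that act beside the core pluripotency factors POU5F1 and SOX2 were followed in porcine blastoids and in the porcine embryonic stem cells (pESCs) from which blastoids are made. They were NANOG, SALL4, ESRRB, KLF4, KLF5, ERAS, UTF1, LIN28A and TFCP2L1, taken by name from the 30029 genes of the blastoid count tables and the 29886 gene symbols of the pESC table. All 9 were listed in both. Blastoids are blastocyst-like structures grown from stem cells. The 2 blastoid libraries were single-cell RNA-seq of day 6 blastoids from pESCs in iBlastoid medium. The blastoids were picked by hand for a cavity and for inner and outer compartments and then dissociated. The 3 bulk RNA-seq libraries were pESCs grown in 4FIXY medium, named IVFP25, PA_4P7 and PAP25 in the table. According to the study's methods pESCs were parthenogenetic, that is from eggs activated without sperm, whereas IVFP25 begins with the usual abbreviation of in vitro fertilization, and no column name could be matched to a replicate number. Nothing in the labels says whether the 2 blastoid libraries came from separate experiments, so that p-values measure the spread between these libraries, which may be technical.

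POU5F1 and SOX2 hold the pluripotent state together with a wider set of proteins. NANOG is a homeodomain factor of the epiblast, SALL4 a zinc finger factor that binds beside POU5F1, and UTF1 a chromatin-bound regulator of undifferentiated cells. ERAS is a RAS-type GTPase of embryonic stem cells that is active without a signal, and LIN28A an RNA-binding protein that blocks maturation of the let-7 microRNAs. Neither of these is a transcription factor. ESRRB, TFCP2L1, KLF4 and KLF5 are transcription factors best known from the naive state of mouse embryonic stem cells, the state before implantation, as opposed to the primed state after it. KLF4 and KLF5 are also factors of epithelia, and KLF5 is known from trophectoderm, the outer layer of the blastocyst.

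The lowest barcode kept as a cell had 11223 UMIs in library 1 and 9807 in library 2, which gave 7369 and 8175 cells with a median of 29728 and 27588 UMIs (unique molecular identifiers, 1 for each captured RNA molecule). The libraries shared 9 cell barcodes. Cells were gated by 6 markers that are not among the 9 genes: POU5F1, CRABP1, GABRP, TP63, ISG15 and COL3A1. A gate held the top 5% of cells of a library by the marker's level in counts-per-million (CPM, UMIs of a gene scaled to the same total for every cell or sum of cells), with at least 3 UMIs of it, and the 185 cells past more than 1 cut were left out, which left 319 to 400 cells per gate and library. The gates are called by their marker and given no cell type name. In libraries 1 and 2 the cuts were 292 and 473 CPM for POU5F1, 198 and 598 for CRABP1 and 1149 and 481 for COL3A1. They were 1122 and 1059 for GABRP, 405 and 359 for TP63 and 764 and 718 for ISG15. A gate was thus not set at the same marker level in both libraries. Summed UMIs of 6 epiblast markers (POU5F1, SOX2, DNMT3B, NODAL, TDGF1 and L1TD1) reached 925 and 1389 CPM in POU5F1-gated cells, against 19.2 to 144 in the other 5 gates. POU5F1 itself set the gate. Where a sum given below includes a gate's own marker, the gate likewise set part of that sum. Over 8 trophectoderm markers, which include KRT8, KRT18 and GATA3, POU5F1-gated cells held 6777 and 5346 CPM, against 4173 to 22330 in the other gates, and their part in the results was not tested. They were the deepest gate, with a median of 39911.5 and 36064.5 UMIs per cell, and COL3A1-gated cells the shallowest with 21681 and 19865. Levels in barcodes of only 10 to 100 UMIs, which mostly hold RNA free in the suspension, are given as the background. These CPM are shares of UMIs and not amounts per barcode. A cell group below them is therefore not shown to lack the gene, and the amount of free RNA per cell was not tested.

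In POU5F1-gated cells 6 of the 9 genes were higher and 1 was lower than the mean of the other 5 gates, where 31.7% of all 16161 genes tested were higher and 29.9% were lower (61.6% in either direction). NANOG, ERAS and UTF1 rose by 19.6-fold to 41.6-fold, SALL4 by 2.58-fold, ESRRB by 2.40-fold and LIN28A by 1.52-fold. Against cells in no gate NANOG, ERAS, UTF1 and SALL4 were still called, with smaller log2 fold changes of 4.34, 2.83, 2.59 and 0.65 (largest edgeR adjusted p = 0.00047). Over all 16263 genes tested against that reference, 4083 were higher and 3897 lower. Against the other 5 gates KLF5 fell, and KLF4 and TFCP2L1 did not pass the test. The median log2 fold change was 1.26 over the 9 genes and -0.01 over all genes tested. Each test was edgeR's quasi-likelihood test on 12 sums of UMIs, 2 libraries by 6 gates, with p-values adjusted by Benjamini-Hochberg over all genes tested. The 6 comparisons of 1 gate with the other 5 share their sums, so that a rise in 1 gate lowers the values of the others.

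**Figure D1:**
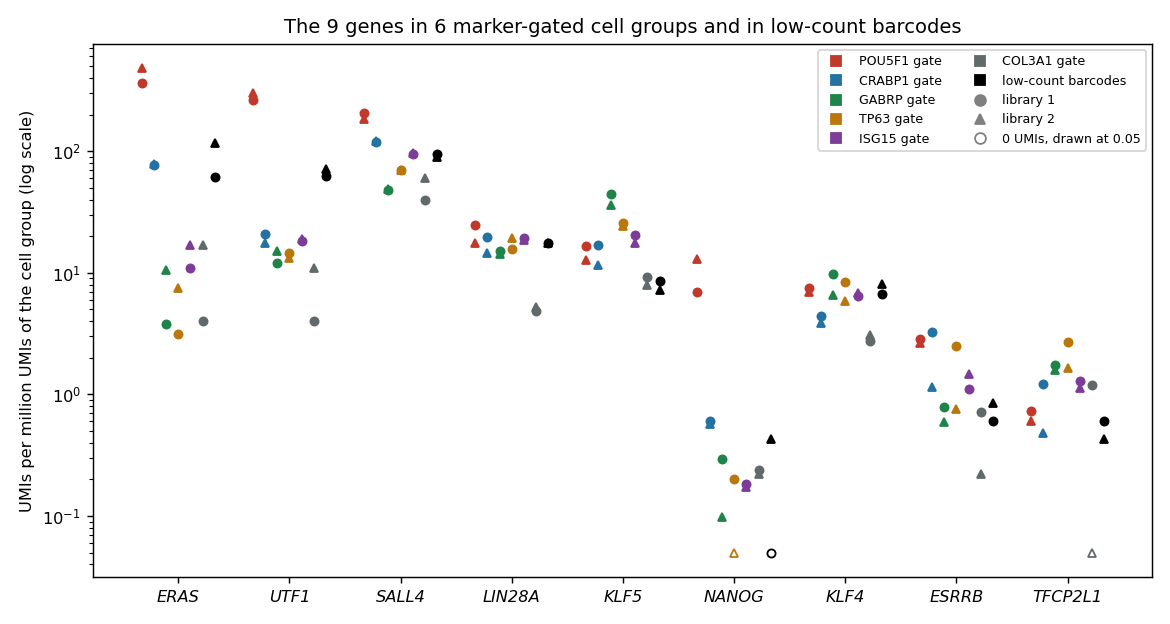
Level of each gene in CPM of the cell group (log axis), in the 6 gates and in low-count barcodes. Circles are library 1, triangles library 2, and open symbols at 0.05 stand for 0 UMIs. ERAS, UTF1, SALL4 and NANOG are highest in POU5F1-gated cells in both libraries, KLF5 in GABRP-gated cells.

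ERAS reached 363 CPM in library 1 and 481 in library 2 in POU5F1-gated cells, a mean of 422 ± 83.3 (SD, n = 2). CRABP1-gated cells followed with 76.9 and 77.8. The ISG15, COL3A1, GABRP and TP63 gates held 3.12 to 17.0, each overlapping the next in this order of means. The POU5F1 gate was thus above every other gate in both libraries, with a log2 fold change of 4.91 (SE 0.22, edgeR adjusted p = 1.5e-09) against the mean of the other 5 and of 2.58 (SE 0.32, edgeR adjusted p = 2.8e-05) against the CRABP1 gate. Low-count barcodes held 61.0 and 116 CPM, above the level of 5 of the 6 gates in library 2 and of 4 in library 1. ERAS in the 4 lowest gates lay below this level, and no expression is read from it there. The part of free RNA in these UMIs was not tested.

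UTF1 gave 264 and 302 CPM in POU5F1-gated cells, a mean of 283 ± 27.5 (SD, n = 2), and 4.05 to 20.7 in all other gates. No other gate came near it, the CRABP1 gate included with 20.7 and 17.7. The log2 fold change was 4.29 (SE 0.12, edgeR adjusted p = 4.9e-11) against the other 5 gates and 4.01 (SE 0.19, edgeR adjusted p = 9.1e-09) against CRABP1-gated cells. Low-count barcodes held 62.8 and 70.8 CPM, above every gate but POU5F1.

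ERAS and UTF1 lie on different chromosomes and were both far higher in the POU5F1 gate than in any other, so the 250 bases before their annotated starts are shown. They differed in the CRABP1 gate, where ERAS was called higher and UTF1 lower than in the mean of the other gates. On Sscrofa11.1, also named susScr11, RefSeq places ERAS at chrX:42942033-42946715 and UTF1 at chr14:141190170-141193409, both on the plus strand and both with 2 exons. Capitals mark CACCC on either strand, the core of the sites that KLF proteins bind. ERAS has 2 matches and UTF1 has 1.
ERAS, chrX:42941783-42942032, plus strand: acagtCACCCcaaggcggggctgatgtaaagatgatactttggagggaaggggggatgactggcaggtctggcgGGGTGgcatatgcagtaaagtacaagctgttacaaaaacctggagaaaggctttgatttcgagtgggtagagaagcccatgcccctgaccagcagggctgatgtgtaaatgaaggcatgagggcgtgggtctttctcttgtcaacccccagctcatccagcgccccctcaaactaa
UTF1, chr14:141189920-141190169, plus strand: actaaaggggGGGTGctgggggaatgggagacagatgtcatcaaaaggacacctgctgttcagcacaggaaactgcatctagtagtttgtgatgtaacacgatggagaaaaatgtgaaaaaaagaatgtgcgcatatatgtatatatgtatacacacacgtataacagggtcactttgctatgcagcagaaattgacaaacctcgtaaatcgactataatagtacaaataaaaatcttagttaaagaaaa
CACCC occurs on 1 of the strands in 53.9% of the 19556 windows of this length before annotated gene starts. The octamer ATGCAAAT, the letters that POU factors bind, was in neither window nor in those of the other 7 genes, and in 1.24% of all windows. A match is only a match of letters, and an annotated start need not be the start used in these cells.

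NANOG had few UMIs and a strong contrast. POU5F1-gated cells held 6.96 and 13.0 CPM, from 105 and 193 UMIs, a mean of 9.99 ± 4.29 (SD, n = 2). CRABP1-gated cells held 0.604 and 0.576, from 7 and 6 UMIs. Each of the other 4 gates had 0 to 3 UMIs per library, no more than the 3 UMIs taken as the floor of detection, and low-count barcodes had 0 and 1. The POU5F1 gate was above the rest in both libraries with a log2 fold change of 5.38 (SE 0.31, edgeR adjusted p = 1e-08), but the libraries differed in size, with 6.64 without library 1 and 4.47 without library 2. Against the CRABP1 gate it was 4.19 (SE 0.44, edgeR adjusted p = 6.2e-06), and 3.56 without library 2.

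The annotation holds NANOG at 2 places, a copy in 1 exon at chr1:169064134-169065292 and a copy of 4 or 5 exons, depending on the transcript, at chr5:62931642-62939086, both on the plus strand. Their coding sequences are 915 bases each and 99.8% identical, with 2 substitutions, G124T and C258G from the chromosome 1 to the chromosome 5 copy, counted from 1 at the first base of the start codon. The 41 bases around each are shown because the copies can be told apart only there within the coding sequence, and capitals mark the base that differs.
NANOG chromosome 1, coding bases 104 to 144: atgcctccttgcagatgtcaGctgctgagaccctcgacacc
NANOG chromosome 5, coding bases 104 to 144: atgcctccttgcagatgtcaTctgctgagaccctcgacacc
NANOG chromosome 1, coding bases 238 to 278: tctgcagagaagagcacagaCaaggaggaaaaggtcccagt
NANOG chromosome 5, coding bases 238 to 278: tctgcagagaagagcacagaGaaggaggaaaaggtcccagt
The blastoid tables carry a single NANOG row. Reads that fit both copies cannot be assigned by sequence, so the NANOG level and its split between copies are uncertain in both assays, and the part of this in the low UMI counts was not tested.

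SALL4 UMIs were found in every gate. POU5F1-gated cells held 204 and 184 CPM (mean 194 ± 14.2 SD, n = 2), followed by CRABP1-gated cells with 119 and 122, ISG15-gated cells with 94.4 and 95.7 and TP63-gated cells with 69.3 and 69.8. These 4 gates did not overlap. COL3A1-gated cells with 39.4 and 60.4 overlapped GABRP-gated cells with 47.7 and 49.0. The log2 fold change was 1.37 (SE 0.08, edgeR adjusted p = 1.6e-08) in the POU5F1 gate and 0.81 (SE 0.12, edgeR adjusted p = 8.3e-05) against the CRABP1 gate. In low-count barcodes SALL4 stood at 94.5 and 89.6, near the ISG15 gate. This was above the TP63, COL3A1 and GABRP gates, from which neither SALL4 expression nor its absence is read. At full depth 75.5% and 72.3% of TP63-gated cells had a SALL4 UMI.

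LIN28A UMIs were at similar levels in 5 of the 6 gates. It gave 24.8 and 17.5 CPM in POU5F1-gated cells, 14.3 to 19.5 in the ISG15, TP63, CRABP1 and GABRP gates, each overlapping the next in the order of means, and 4.88 and 5.22 in COL3A1-gated cells, well apart from the rest. The log2 fold change of 0.60 (SE 0.13, edgeR adjusted p = 0.00092) in the POU5F1 gate was 0.37 without library 1, and 0.06 (edgeR adjusted p = 0.73) against cells in no gate. Low-count barcodes held 17.7 and 17.5, near the lower of the POU5F1 gate values. This was within the range of the ISG15, TP63, CRABP1 and GABRP gates and above the COL3A1 gate. No expression of LIN28A is read from these gates. ESRRB gave 2.85 and 2.63 CPM in POU5F1-gated cells, from 43 and 39 UMIs, and 3.28 and 1.15 in CRABP1-gated cells, so these gates overlapped. Low-count barcodes held 0.610 and 0.853 of ESRRB, from 1 and 2 UMIs, under the floor of 3. Its log2 fold change was 1.26 (SE 0.38, edgeR adjusted p = 0.011) against the other 5 gates, and 0.53 (edgeR adjusted p = 0.27) against cells in no gate.

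KLF5 had another pattern. GABRP-gated cells, which also held the highest sums of 8 trophectoderm markers (22330 and 21365 CPM) and of 7 amnion markers, GABRP included (2646 and 2541 CPM), gave 44.1 and 36.4 CPM of KLF5, TP63-gated cells 25.7 and 24.3, and ISG15-gated cells 20.5 and 17.6. POU5F1-gated cells held 16.6 and 12.8 and overlapped CRABP1-gated cells with 17.0 and 11.6, while COL3A1-gated cells were lowest with 9.29 and 7.99. KLF5 was the gene of the 9 that fell in the POU5F1 gate, with a log2 fold change of -0.42 (SE 0.13, edgeR adjusted p = 0.014), a call lost with cells in no gate as the reference (0.0055, edgeR adjusted p = 0.98), with gates of the top 10% of cells and without doublets. KLF4 came in the order of means from the GABRP gate with 9.77 and 6.62 over the POU5F1 gate with 7.49 and 6.95 and the TP63 gate with 8.34 and 5.89 to the ISG15 gate with 6.42 and 6.83, each overlapping the next. It was lower in the CRABP1 gate with 4.40 and 3.84 and lowest in the COL3A1 gate with 2.74 and 3.11. Low-count barcodes held 6.71 and 8.10 of KLF4, from 11 and 19 UMIs, below 3 of the gates in library 1 and above all 6 in library 2. Of KLF5 they held 8.54 and 7.25, below every gate in both libraries. The log2 fold change of KLF4 in the POU5F1 gate was 0.35 (SE 0.16, edgeR adjusted p = 0.069), and with library as a block the edgeR adjusted p was 0.046.

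The RefSeq models of LIN28A (chr6:83806178-83818550, plus strand, 4 exons) and KLF5 (chr11:45370009-45386673, plus strand, 4 exons) hold coding sequence only, 618 and 1374 bases, and end at the stop codon with 0 annotated bases after it. The last 60 coding bases of each are shown with the stop codon in capitals, since the model ends there.
LIN28A, chromosome 6: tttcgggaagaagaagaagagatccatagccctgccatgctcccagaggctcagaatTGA
KLF5, chromosome 11: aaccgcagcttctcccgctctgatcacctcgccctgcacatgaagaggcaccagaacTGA
A SALL4 model of 3153 coding bases also ends there, while another runs on for 1702 bases. Models of the following genes run on after the stop codon, by 51 bases in both NANOG copies, 110 in UTF1, 225 in ERAS, 889 or 909 in KLF4 and 3288 in ESRRB. The annotation used by the authors may differ from this one, and the part of model length in the UMI levels of LIN28A and KLF5 was not tested.

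TFCP2L1 had few UMIs in every gate. POU5F1-gated cells held 11 and 9 UMIs, 0.729 and 0.607 CPM, below TP63-gated cells with 2.71 and 1.64 and GABRP-gated cells with 1.76 and 1.58. COL3A1-gated cells had 10 UMIs in library 1 and 0 of 9011208 UMIs in library 2. Low-count barcodes held 0.610 and 0.427 CPM of TFCP2L1, from 1 UMI in each library, so no excess over free RNA can be read for the POU5F1 gate. The log2 fold change in the POU5F1 gate was -0.86 (SE 0.54, edgeR adjusted p = 0.19) and 0.45 without library 1, so no direction can be given.

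**Figure D2:**
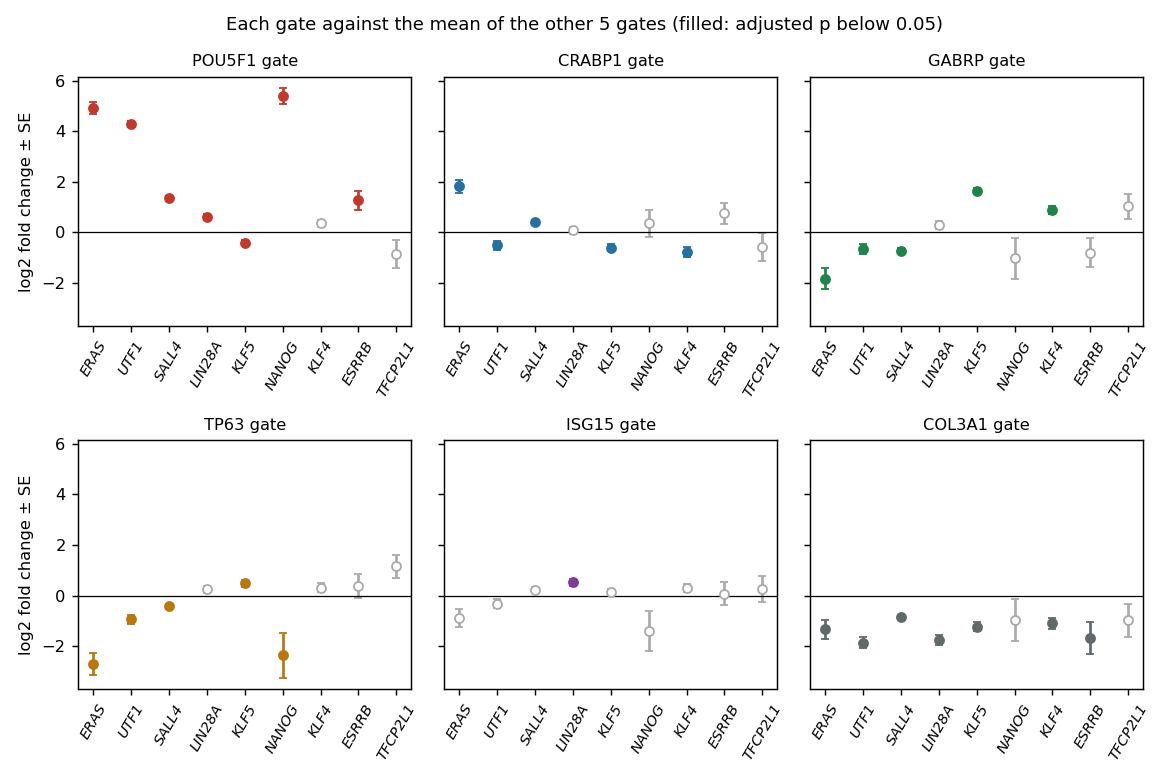
Log2 fold change of each gene in 1 gate against the mean of the other 5 gates, with its standard error (bars). Filled points passed the test at an adjusted p below 0.05, open points did not. POU5F1-gated cells show 6 higher and 1 lower of the 9, COL3A1-gated cells 7 lower and none higher.

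CRABP1-gated cells, which held 8 neural markers (CRABP1 included) summing to 3171 and 4485 CPM, had 2 genes higher (background 19.7%) and 3 lower (background 20.6%, either direction 40.3%). ERAS was higher there by 1.82 on the log2 scale (SE 0.27, edgeR adjusted p = 0.0001) and SALL4 by 0.39 (SE 0.09, edgeR adjusted p = 0.0033). ERAS at 76.9 and 77.8 CPM was near the 61.0 and 116 of low-count barcodes, its value was -0.41 with gates of the top 2% of cells, 0.25 (edgeR adjusted p = 0.65) against cells in no gate, and 2.54 without library 2. Against cells in no gate SALL4 was at -0.17. UTF1, KLF5 and KLF4 were lower by 0.52 to 0.77, KLF5 was not called against cells in no gate (-0.16, edgeR adjusted p = 0.49), and the call of UTF1 was lost without doublets, with gates of the top 10% of cells and with DESeq2, with values of -0.78 without library 1 and -0.18 without library 2. Doublets were called in 10% of CRABP1-gated cells in each library, against 3.33% and 1.75% of POU5F1-gated cells. Without them ERAS was at 2.35 and SALL4 at 0.43, both still called, and UTF1 at -0.27 (edgeR adjusted p = 0.11).

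In GABRP-gated cells 2 genes were higher (background 28.4%) and 3 lower (background 28.2%, either direction 56.6%). Both KLF genes rose, KLF5 by 1.64 (SE 0.12, edgeR adjusted p = 5.8e-08) and KLF4 by 0.88 (SE 0.16, edgeR adjusted p = 0.00045) on the log2 scale. In library 2, however, KLF4 held 6.62 CPM in this gate. That was below low-count barcodes (8.10) and the POU5F1 (6.95) and ISG15 (6.83) gates. ERAS, SALL4 and UTF1 fell by 0.66 to 1.84, and all 3 lay below their level in low-count barcodes in this gate. The UTF1 call was lost with DESeq2 (-0.64, adjusted p = 0.051). TP63-gated cells, marked by the epidermal factor TP63, had KLF5 higher by 0.49 (SE 0.13, edgeR adjusted p = 0.0085), 1 of 9 where the background is 20.2%. They had ERAS, UTF1, SALL4 and NANOG lower, 4 of 9 where the background is 21.0% (either direction 41.2%). ERAS, UTF1 and SALL4 lay below their level in low-count barcodes in this gate too. NANOG was called there from 2 UMIs in library 1 and 0 in library 2 at an edgeR adjusted p of 0.0497, under the floor of 3 UMIs, and with gates of the top 2%, cells in no gate, both DESeq2 settings, the mitochondrial filter or no doublets the call was lost. TFCP2L1 had a log2 fold change of 1.16 (SE 0.47, edgeR adjusted p = 0.065) in this gate, and with library as a block the edgeR adjusted p was 0.041.

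ISG15-gated cells, which held 8 interferon genes (ISG15 included) at 1995 and 2067 CPM in sum, had the fewest calls of the 6 gates over all genes as well. LIN28A was higher by 0.52 on the log2 scale (SE 0.13, edgeR adjusted p = 0.013), the only call among 9 genes, with a background of 13.0% higher, 8.13% lower and 21.1% in either direction. The call was lost with gates of the top 2% and the top 10%, and against cells in no gate the value was -0.0050. LIN28A held 19.3 and 18.7 CPM in this gate, against 17.7 and 17.5 in low-count barcodes. ERAS, at -0.87, was not called (edgeR adjusted p = 0.10) but was with library as a block (edgeR adjusted p = 0.019). COL3A1-gated cells, which held 8 fibroblast and mesenchyme markers (COL3A1 included) at 6793 and 5091 CPM, had 7 genes lower (background 24.2%) and none higher (background 28.3%, either direction 52.4%). UTF1 fell by 1.86 on the log2 scale (SE 0.22, edgeR adjusted p = 7.1e-06), LIN28A by 1.75 (SE 0.18, edgeR adjusted p = 2.6e-06) and KLF5 by 1.22 (SE 0.16, edgeR adjusted p = 2.6e-05). ERAS, UTF1 and ESRRB there differed between libraries, with -2.27, -2.72 and -1.27 without library 2 and -1.01, -1.39 and -2.30 without library 1. The cut of this gate was 1149 CPM in library 1 and 481 in library 2, and doublets were 5.11% and 10.9% of its cells. The part of either was not tested. The ERAS call was lost with gates of the top 10% of cells, that of ESRRB with the top 2% and the top 10%, and that of KLF4 with the top 2% (-0.79, edgeR adjusted p = 0.061). ESRRB had 6 UMIs in library 1 and 2 in library 2 in this gate, the latter under the floor of 3. ERAS, UTF1, SALL4, LIN28A and KLF4 lay below their level in low-count barcodes there. Fewer cells with a gene and less RNA of it per cell cannot be told apart in these sums.

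Against CRABP1-gated cells alone, which like POU5F1-gated cells held SOX2 (69.3 and 82.9 CPM against 97.5 and 112), 6 genes were higher in the POU5F1 gate (background 25.1%) and none lower (background 22.3%, either direction 47.4%). Beside NANOG, UTF1, ERAS and SALL4 these were KLF4 with a log2 fold change of 0.93 (SE 0.22, edgeR adjusted p = 0.0034) and LIN28A with 0.44 (SE 0.16, edgeR adjusted p = 0.042). The LIN28A call was lost with the top 2% of cells, DESeq2, the mitochondrial filter and without doublets. KLF5, ESRRB and TFCP2L1 were not called, at 0.16 (SE 0.17), 0.42 (SE 0.47) and -0.23 (SE 0.72).

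The gates hold only the top of each marker, so all cells were also put in order of POU5F1. Cells with 0 POU5F1 UMIs numbered 4448 and 4217, and the others were divided by POU5F1 level into 4 groups of equal size, 730 or 731 cells in library 1 and 989 or 990 in library 2. ERAS rose over these 5 groups from 7.58 to 297 CPM in library 1 and from 13.3 to 364 in library 2. UTF1 rose from 12.2 to 205 and from 13.5 to 234. For both, each group was above the last in both libraries, but the first 3 groups lay below the low-count barcodes (61.0 and 116 CPM of ERAS, 62.8 and 70.8 of UTF1), and no expression is read from them. SALL4 was at 82.7 and 88.2 in cells without POU5F1, below the 94.5 and 89.6 of low-count barcodes, so no expression is read from it there. SALL4 ended at 193 and 191 in the top group. NANOG stayed at 0.152 to 0.985 up to the fourth group and reached 4.20 and 7.02 only in the top group. LIN28A moved from 17.5 to 24.8 and from 15.6 to 22.0, KLF5 from 18.0 to 16.7 and from 15.1 to 15.8, and KLF4 from 5.71 to 6.75 and from 5.17 to 7.95. In cells without POU5F1, LIN28A and KLF4 lay below low-count barcodes (17.7 and 17.5 CPM of LIN28A, 6.71 and 8.10 of KLF4). ESRRB was lowest in cells without POU5F1 and highest in the top group in both libraries, at 1.72 and 2.78 in library 1 and 1.04 and 2.78 in library 2, with no steady order between. TFCP2L1 was lowest in the top group, at 0.872 and 0.688. Median depth also differed between the groups, with no steady order, from 26275 UMIs in cells without POU5F1 to 40043.5 in the lowest of the 4 groups in library 1 and from 23826 to 37342 in the same groups in library 2, and its part was not tested.

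**Figure D3:**
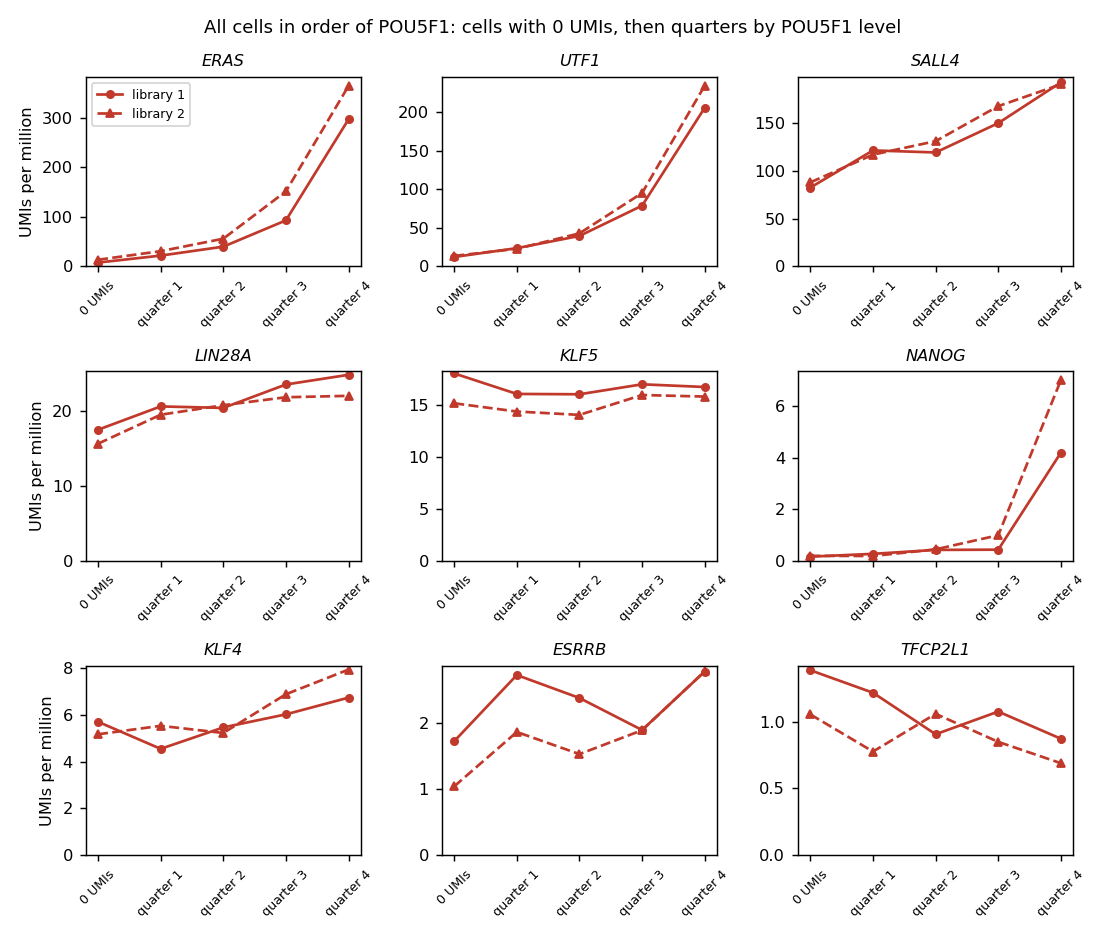
CPM of each gene in all cells in order of POU5F1: cells with 0 POU5F1 UMIs, then 4 groups of equal size by POU5F1 level. Solid lines with circles are library 1, dashed lines with triangles library 2, and each vertical axis starts at 0. ERAS and UTF1 climb throughout and lie below their level in low-count barcodes in the first 3 groups, NANOG climbs in the top group, and KLF5 is nearly level.

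Shares of cells with a UMI were compared after each cell was thinned to 10000 UMIs, which left out 26 cells of library 2 and none of library 1. UTF1 was found in 82.8% of POU5F1-gated cells in library 1 (exact binomial 95% interval 78.5 to 86.5%) and in 91.7% in library 2 (88.6 to 94.2%), against 3.12% and 4.69% of COL3A1-gated cells. Unthinned it was in 98.1% and 98.8%. ERAS was found in 65.3% (60.1 to 70.2%) and 78.6% (74.3 to 82.6%) of POU5F1-gated cells, against 3.98% and 6.25% of COL3A1-gated cells. SALL4 was found in 76.7% and 77.1%, but also in 34.1% and 35.2% of COL3A1-gated cells. In the COL3A1 gate UTF1, ERAS and SALL4 lay below their CPM in low-count barcodes, and no expression is read from their shares there. NANOG was found in 6.11% (3.87 to 9.11%) and 11.6% (8.59 to 15.1%), and unthinned in 19.7% and 29.2% of POU5F1-gated cells, so most of these cells gave no NANOG UMI at this depth. In COL3A1-gated cells it was found in 0.568% and 0.519% unthinned. KLF5 was found in 30.9% and 24.3% of GABRP-gated cells against 12.8% and 10.8% of POU5F1-gated cells. The intervals given here treat cells as independent, and cells are not replicates of a gate.

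Of the 9 genes, a thinned POU5F1-gated cell showed a mean of 2.78 in library 1 and 2.97 in library 2 (4.23 and 4.14 unthinned). CRABP1-gated cells showed 1.34 and 1.30, and COL3A1-gated cells 0.557 and 0.589. At least 5 of the 9 were seen in 5.00% and 4.52% of POU5F1-gated cells, and none in 1.11% and 0.503%. Within the POU5F1 gate, shares of cells with both of 2 genes were set beside the product of their shares. ERAS and UTF1 were both found in 55.6% and 72.9% of cells, where the product of their shares was 54.0% and 72.1%. For NANOG and ERAS the shares were 4.72% and 9.55%, and the products 3.99% and 9.09%. NANOG and KLF5 were found together in 2.22% and 1.76%, 8 and 7 cells, where the products were 0.781% and 1.25%. Other pairs lay below the product in both libraries. SALL4 and UTF1 had 63.3% and 70.6% where the products were 63.5% and 70.7%, and KLF4 and ERAS 6.11% and 4.52% where they were 6.35% and 5.14%. The remaining pairs are not given, and no pattern over all pairs is read from these. Intervals cover counting error only.

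**Figure D4:**
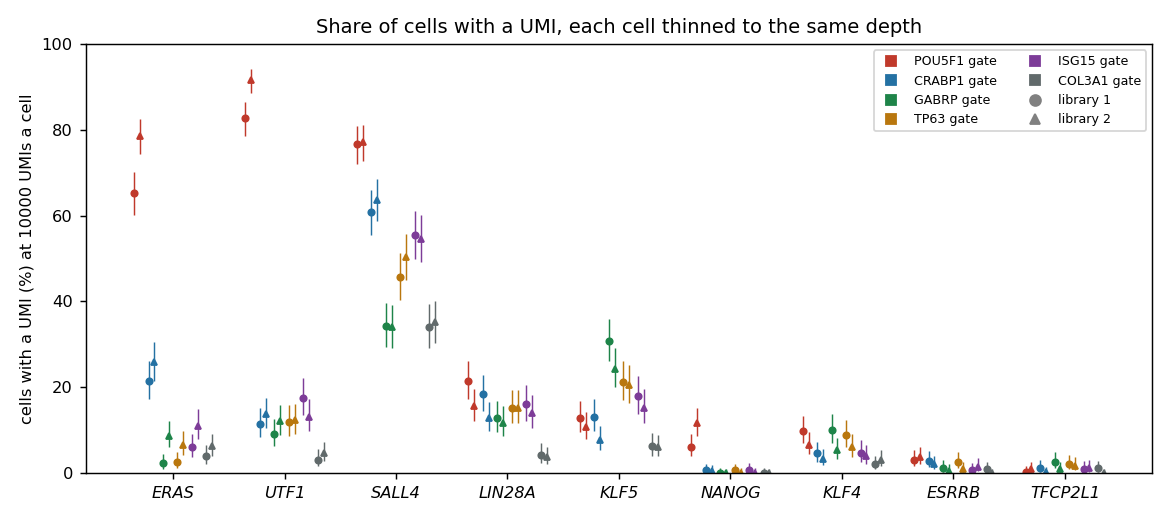
Percent of cells with at least 1 UMI of each gene after thinning each cell to 10000 UMIs, by gate. Circles are library 1, triangles library 2, and bars are exact binomial 95% intervals. UTF1, ERAS and SALL4 are found in most POU5F1-gated cells, NANOG in 6.11% and 11.6%.

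POU5F1-gated cells were further divided at the median DNMT3B level of each library. DNMT3B is a DNA methyltransferase of the primed state. DNMT3B-low cells held more GATA3, a trophectoderm factor, with 152 and 73.4 CPM against 30.1 and 14.2 in DNMT3B-high cells. None of the 8 genes tested was called between these groups by edgeR (background 0.740% higher, 2.88% lower and 3.62% in either direction of 13920 genes). Before adjustment 3 of the 8 had an edgeR p below 0.05. No share over all genes was counted for this, so it is no result about the 8 genes. TFCP2L1 was too low to be tested. NANOG was at 10.0 and 17.1 CPM in DNMT3B-high and 3.13 and 7.50 in DNMT3B-low cells. ERAS was at 507 and 553 against 182 and 382. KLF5 was at 12.6 and 10.8 against 21.6 and 15.5. The groups did not overlap in these 3 genes, nor in UTF1, SALL4, KLF4 and TFCP2L1. How often they did not overlap over all genes was not counted. The log2 differences were 1.28 (SE 0.42, edgeR adjusted p = 0.13) for NANOG, 0.83 (SE 0.29, edgeR adjusted p = 0.15) for ERAS and -0.75 (SE 0.20, edgeR adjusted p = 0.089) for KLF5. With library as a block all 3 were called, with edgeR adjusted p of 0.00045, 3.3e-05 and 0.0043. Of all 13920 genes, 1042 were higher and 1400 lower with the block. UTF1 and SALL4 differed little, by 0.20 (SE 0.12) and 0.10 (SE 0.10).

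Other pluripotency genes were grouped into lists by their known roles, and their counts stand against the background of 31.7% higher and 29.9% lower over all genes tested. Of 14 genes of the formative and primed state, 13 were higher and none lower in the POU5F1 gate, with a median log2 fold change of 2.81. NODAL, a ligand of the activin pathway, rose most (5.86), before its co-receptor TDGF1 (5.22) and FOXD3 (4.89). Of 12 genes of the naive state 10 could be tested, and 5 were higher and 2 lower, with a median of 0.71. The germ cell and naive genes DPPA3 (5.06) and PRDM14 (4.52) and the nuclear receptor NR5A2 (1.63) rose, whereas TBX3 and the cytokine receptor gene IL6ST fell by 1.32 and 0.46 and STAT3 was not called at -0.15 (SE 0.16). Of 12 genes shared by pluripotent states 10 could be tested, and 9 were higher and none lower, led by FOXH1 (3.74), GDF3 (3.67) and SOX2 (2.89).

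Of 19 close relatives of the 9 genes 7 were higher and 5 lower, with a median log2 fold change of 0.10. These counts were near the background of 31.7% higher and 29.9% lower over all genes and are no result about the relatives. The 3 relatives that changed most were SALL3, higher by 2.52 (SE 0.12), SALL2, by 1.99 (SE 0.09), and SALL1, by 1.89 (SE 0.10). LIN28B, the relative of LIN28A, was at 62.7 and 71.5 CPM in POU5F1-gated cells and was not called at 0.10 (SE 0.07), while CRABP1-gated cells held 185 and 195 CPM of it. In the KLF family KLF2 rose by 1.26 (SE 0.23), while KLF3, KLF6 and KLF10 fell by 0.84, 1.11 and 0.43. Among RAS genes HRAS was higher by 0.24 and NRAS lower by 0.37, against 4.91 for ERAS.

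Across the 12 sums, the genes whose levels were most like UTF1 among 16160 genes were POU5F1 (Pearson's r = 0.9868 on log2 of CPM plus 1) and CDKL2 (0.9865). POU5F1 was used to build the gate, which set part of this likeness. NANOG was most like CDX4 (0.992), ERAS most like HDDC2 (0.980), SALL4 like HMGA1 (0.989), LIN28A like SH3GLB2 (0.966), ESRRB like ERO1B (0.962), KLF5 like PPARD (0.979), KLF4 like LOC102167065 (0.965) and TFCP2L1 like ACOX2 (0.910). Among the 9, NANOG and UTF1 (0.943) and SALL4 and ERAS (0.907) were the closest pairs, while KLF4 and KLF5 were at 0.799, KLF5 and TFCP2L1 at 0.769 and KLF4 and LIN28A at 0.723. These are descriptions over sums that share 2 libraries and 6 gates.

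In pESCs the order was headed by LIN28A, with the caveat of its short model. It had 545 FPKM (mapped fragments scaled by transcript length and library size) in IVFP25, 547 in PA_4P7 and 455 in PAP25, a mean of 516 ± 52.3 (SD, n = 3), and ranked between 113 and 127 of 29886 genes. FPKM is scaled by transcript length and so allows genes to be compared. SALL4 had 90.8, 97.9 and 100.4 FPKM, the sum of 2 transcripts, of which the higher had 63.3, 50.0 and 58.5. ERAS had 112, 127 and 43.0, and UTF1 58.2, 67.1 and 39.2. SALL4, ERAS and UTF1 overlapped in pairs over the 3 libraries, SALL4 with ERAS and ERAS with UTF1. SALL4 and UTF1 did not overlap as sums, but did with the higher SALL4 transcript alone.

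NANOG had 25.7, 41.9 and 12.9 FPKM in IVFP25, PA_4P7 and PAP25. Of this the chromosome 5 copy took 79.9%, 71.7% and 83.0% as the authors' quantification divided it, through the transcript of 4 exons, while the transcript of 5 exons was listed at 0. KLF5 had 8.31, 12.6 and 12.1 FPKM and KLF4 2.93, 4.52 and 4.15. ESRRB had 0.252, 0.668 and 1.38. TFCP2L1 had 0.0886, 0 and 0.0457, lower than any other gene of the 9 in each library. Thus 7 of the 9 genes had a mean of at least 1 FPKM, in a table where 11520 to 11868 genes reached 1 FPKM per library. LIN28A, ERAS, UTF1 and NANOG were lowest in PAP25 and SALL4 and ESRRB were highest there. That library also held 468 FPKM over 7 hypoblast markers, 350 of it from APOA1, against 65.6 in IVFP25 and 64.9 in PA_4P7. Over 8 trophectoderm markers PAP25 held 1854 FPKM, 1448 of it from KRT8, against 1403 in IVFP25 and 1029 in PA_4P7. The part of either in the differences was not tested.

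**Figure D5:**
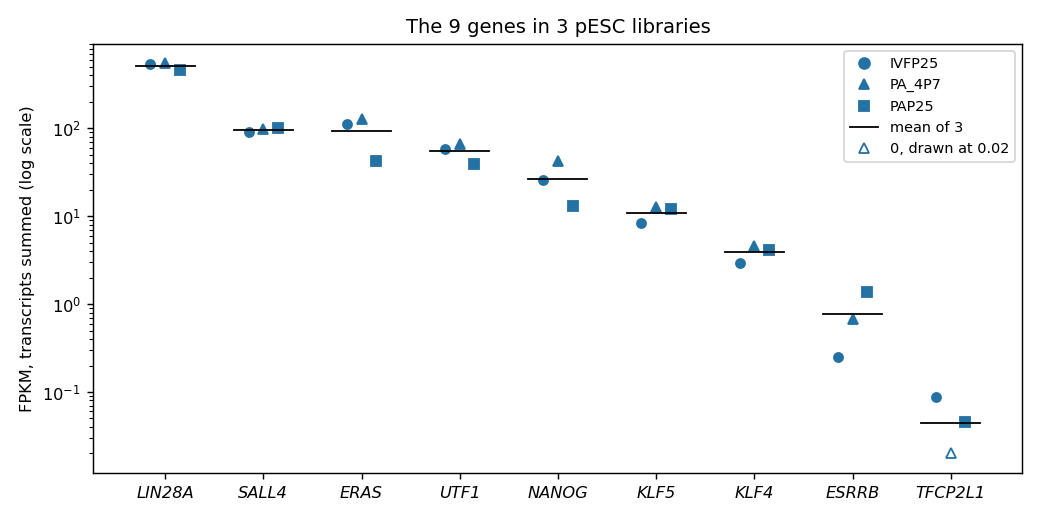
FPKM of each gene in the 3 pESC libraries (log axis), transcripts summed per gene symbol. Circles, triangles and squares are IVFP25, PA_4P7 and PAP25, horizontal lines are means, and the open symbol at 0.02 stands for 0. LIN28A is highest with 455 to 547 FPKM and TFCP2L1 lowest with 0 to 0.0886.

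The pESC and blastoid values are on different scales and were set side by side only as ranks among genes above 0. SALL4 stood at percentile 96.3 to 97.0 in pESCs and at 96.5 and 96.1 in POU5F1-gated cells. ERAS stood at 92.1 to 97.5 in pESCs and at 98.3 and 98.7 in POU5F1-gated cells, and UTF1 at 91.2 to 94.8 and at 97.4 and 97.8. KLF4 stood at 50.2 to 55.1 and at 51.3 and 50.4, but at 19.6 to 28.8 in pESCs among genes of at least 1 FPKM. LIN28A was at percentile 99.3 to 99.4 in pESCs but at 69.8 and 63.6 in POU5F1-gated cells, and NANOG at 74.1 to 91.3 and at 50.4 and 58.8. The part of the short LIN28A model and of the 2 NANOG copies in these ranks was not tested. Fragments scaled by length and UMIs are counted in different ways, and no test was made between them.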

How the data were processed

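The 9 genes, the gates and the gene lists were chosen with earlier results of these data known. For blastoids, the authors counted UMIs with Cell Ranger 7.1.0 (build susScr11). They deposited these counts unnormalized for all 3364747 and 3442770 barcodes of libraries 1 and 2 (289452283 and 302211552 UMIs). For pESCs, the authors trimmed reads with Trim Galore 0.6.4, mapped them with HISAT2 2.2.1 and computed FPKM with StringTie 2.2.1, per the labels, and deposited 81391 transcript values. FPKM were summed here per symbol. Their depth is not known.

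A barcode was a cell where its UMIs exceeded 1 part in 10 of the 99th percentile among the expected number of cells. UMI counts were summed per library and gate, filtered by filterByExpr, normalized by TMM and tested with edgeR 4.0.16 (quasi-likelihood, Benjamini-Hochberg over all genes, called below 0.05). CPM are over all UMIs of a sum. Percentiles are among genes above 0. The text gives all 9 genes, the 3 genes of a list that changed most (other list genes named were chosen after their values were seen) and the genes of highest Pearson correlation. Doublets (Scrublet in scanpy 1.11.5, expected rate scaled to cell number) were kept. The 9 barcodes shared by the libraries were kept. Sums of a library come from 1 preparation, and their deviations from gate means correlated at 0.0328 to 0.159 between gates and at 0.230 between DNMT3B groups, so that the library pairs the sums. On simulated counts for the POU5F1 gate against the other 5, 69.5% of genes changed 1.5-fold (15503 genes tested) and 85.5% of those changed 2-fold (15534 tested) were recovered. For the DNMT3B groups these were 19.5% (13700 tested) and 80.5% (13710 tested). Alternatives were other gate sizes (top 2% and 10%), reference, normalization (DESeq2 1.42.0 size factors), tool, filter, block, mitochondrial filter, doublets, a threshold of 2000 UMIs, the highest transcript in place of the sum, percentiles among genes of at least 1 FPKM and leaving out libraries. R 4.3.3 and Python 3.11.15 were used.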

Additional observations from a re-analysis of the deposited data

How the results depend on the processing

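Of 36 called values of single genes, 22 kept their call under every alternative that gave an adjusted p, and 4 changed sign under at least 1 alternative. Fits that left out a library gave no adjusted p, so that only direction and size could be compared. Of the 35 values not called, 17 changed sign. With cells in no gate as the reference, the POU5F1 gate had 4 called genes in place of 7. The CRABP1 gate had 2 in place of 5 and the ISG15 gate 2 in place of 1. Over all 16263 genes tested against this reference, 4083 were higher and 3897 lower in the POU5F1 gate. These counts were 2298 and 2635 in the CRABP1 gate and 256 and 125 in the ISG15 gate. Among the called values, 3 changed sign against this reference: KLF5 in the POU5F1 gate (0.0055), SALL4 in the CRABP1 gate (-0.17) and LIN28A in the ISG15 gate (-0.0050). With gates of the top 2% of cells, ERAS in the CRABP1 gate was -0.41 and SALL4 between DNMT3B groups -0.0029. With the top 10%, 2 genes were called between DNMT3B groups in place of 0, where 1077 of all 15169 genes were higher and 1181 lower. TFCP2L1 in the POU5F1 gate was 0.45 without library 1 and -1.20 without library 2. The ISG15 gate had 4 calls with no low-count filter and 3 without doublets. Over all genes, 2454 of 24058 were higher and 1549 lower with no filter, and 2381 of 16017 higher and 1494 lower without doublets. The mean number of genes seen per POU5F1-gated cell was 4.19 without thinning in place of 2.87, and 2.78 to 2.97 with either library left out, which was added after seeing the data. The count of genes at 1 FPKM or more in pESCs was 7 to 8 with each library left out in turn (8 without IVFP25) and 7 with the highest transcript only, which lowered the mean of SALL4 to 57.3 FPKM. Among genes of at least 1 FPKM, mean percentiles fell, that of KLF4 to 25.1 and that of NANOG to 74.0. The cause of these changes was not tested.

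With library as a replicate block, 3 genes were called between DNMT3B groups (2 higher, 1 lower) and 2 in the ISG15 gate. KLF4 in the POU5F1 gate and TFCP2L1 in the TP63 gate passed the test, and no other call changed. Of all 16161 genes tested in the ISG15 gate with the block, 2450 were higher and 1625 lower. Over all genes, the 504 calls between DNMT3B groups became 2442 with the block, 2258 with the top 10%, 146 with the top 2%, 776 with no low-count filter and 1128 with a threshold of 2000 UMIs, and the share of higher calls moved from 20.4% to 42.7%, 47.7%, 22.6%, 33.6% and 38.1%. With cells in no gate as the reference, calls fell from 6655 to 4257 in the TP63 gate and from 3418 to 381 in the ISG15 gate. NANOG, ESRRB and TFCP2L1 are limited by sums that held fewer than 10 UMIs in several gates, and the part of depth in this was not tested. The 2 libraries limit every test.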
